A study of Mus musculus with 9 samples.

Results

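Chemokines are small secreted proteins that set up gradients along which leukocytes and progenitor cells move, and most are named for the spacing of their first cysteines as CC, CXC or CX3C ligands. They act through receptors that couple to G proteins, while atypical receptors such as Ackr1, Ackr2 and Ackr3 bind and clear them without such coupling. In injured skeletal muscle, monocytes that carry Ccr2 are drawn in by CC ligands, turn into macrophages, and work beside T cells, fibro-adipogenic progenitors and endothelial cells while new fibres form. The 10 chemokine genes described here were Ccl2, Ccl5, Ccl6, Ccl7, Ccl8, Ccl9, Cxcl10, Cxcl12, Cxcl14 and Cx3cl1. They were taken by symbol from a fixed list, matched by Ensembl identifier to the 54532 genes of the count table, and all 10 were found.

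The study asked whether recombinant METRNL (rMETRNL), a cytokine made in muscle after damage, alters the repair of old muscle. Tibialis anterior muscle of C57BL/6J mice, the muscle at the front of the shin, was damaged with barium chloride (BaCl2), and RNA was sequenced from 9 libraries in 3 groups of 3. Young PBS mice were 4 months old and received PBS, old PBS mice were 24 months old and received PBS, and old rMETRNL mice were 24 months old and received rMETRNL. All 3 groups had BaCl2 damage, none was uninjured, and each mouse had 3 injections of PBS or protein. The dose of rMETRNL is stated as 0.1 ug in one place of the paper and as 0.1 ng in another. The deposited labels describe a digested cell suspension taken 4 days after injury, whereas the paper describes muscle at 8 days, so neither the day nor the preparation is certain. Libraries are numbered 2, 3 and 4 in old PBS and 1, 2 and 3 in both other groups. The labels do not say whether 2 libraries could share an animal, so p-values here measure the spread between these libraries.

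Library totals ran from 16238700 to 22522560 counts, and 3 counts, taken as the floor of detection, corresponded to 0.131 to 0.202 CPM, read counts scaled to a common library size (TMM). The markers that define muscle and macrophages were present in every library. The summed level of 5 mature fibre genes ran from 55585 to 89823 CPM, lowest in old PBS 3, and the 10 markers of macrophages and monocytes summed to 1158 to 1999 CPM. The 8 neutrophil markers summed to 0.959 to 1.91 CPM in young PBS, 2.69 to 11.2 CPM in old PBS and 1.23 to 4.24 CPM in old rMETRNL, with the defining marker Ly6g at 0 counts in all 9 libraries. In edgeR 0 of them passed in any comparison. At an unadjusted p under 0.05 there were 1 of 3 tested in old against young PBS and 2 of 3 in old rMETRNL against old PBS. The shares over all genes tested were 5.91% and 8.07%. By DESeq2 S100a8 and S100a9, which encode the subunits of calprotectin, passed in old against young PBS, at 0.187 and 2.15 CPM (adjusted p = 0.000492) and at 0.323 and 3.06 CPM (adjusted p = 0.00580) in young and old PBS. S100a8 also passed by DESeq2 in old rMETRNL against old PBS, at 0.376 CPM with rMETRNL (adjusted p = 0.0100). The neutrophil markers did not all move together. Retnlg had means of 0.505 and 0.496 CPM in young and old PBS. Its counts were 0, 11 and 16 in old PBS and 0, 29 and 26 in old rMETRNL. Several libraries stood apart. Erythroid markers summed to 967 CPM in old PBS 4 and 816 CPM in old rMETRNL 2, against 50.5 to 243 CPM in the other 7 libraries. The 7 markers of neurons and glia summed to 51.8 to 154 CPM in the 3 old PBS libraries and to 3.33 to 5.70 CPM in the other libraries, and the 5 hepatocyte markers summed to 5.41 to 78.3 CPM in old PBS and to 0.113 to 0.482 CPM elsewhere. Keratinocyte markers summed to 80.5 CPM in young PBS 2 and to 1.88 to 5.03 CPM in the other libraries. Genes of myogenic cells and new fibres summed to 3326 CPM in old PBS 3 against 264 CPM in old PBS 4. The part of these markers in the chemokine values was not tested, and results are given below with and without the library that changed them. The neural and hepatocyte markers were in all 3 old PBS libraries, so leaving out 1 library does not remove them. In each comparison with old PBS their part cannot be told apart from other traits of that group.

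On GRCm38, 6 of the 10 genes sit on chromosome 11. Ccl2 (ENSMUSG00000035385, chr11:82035571-82037453, plus strand), Ccl7 (chr11:82045712-82047525) and Ccl8 (chr11:82115185-82116799) lie in 1 cluster, and Ccl5 (ENSMUSG00000035042, chr11:83525778-83530518, minus strand), Ccl9 (chr11:83572919-83578636) and Ccl6 (chr11:83587882-83593087) in another. Cxcl10 lies at chr5:92346638-92348889, Cxcl12 at chr6:117168535-117181367, Cxcl14 (ENSMUSG00000021508) at chr13:56288643-56296551 and Cx3cl1 at chr8:94772009-94782427. Cxcl10 shares 133 exon bases with Art3 on the opposite strand, a gene with 15713 counts over the 9 libraries, and without a stated strand setting reads in that stretch cannot be assigned between them.

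Promoters are shown for 3 genes whose RefSeq windows hold matches to the motifs of inflammatory transcription factors. The windows run from 250 bases before to 50 bases after the start, on GRCm38.p6, and 7 of the 10 genes had an entry, all but Ccl2, Ccl5 and Ccl7. Matches on either strand to the interferon-stimulated response element (GAAANNGAAA), NF-kB, AP-1 (TGANTCA) and the TATA box (TATAAA) are in capitals, and every sequence is written 5′ to 3′ on the strand of its gene. In Cxcl10 (chr5:92348840-92349139, minus strand) the response element starts at base -213 from the start, NF-kB matches start at -159 and at -104 and -103, which overlap, and AP-1 starts at -74. In Cxcl14 (chr13:56296502-56296801, minus strand) the response element starts at -172. In Ccl9 (chr11:83578587-83578886, minus strand) TATA matches start at -224, -94 and -92, AP-1 at -53 and NF-kB at -35.
Cxcl10: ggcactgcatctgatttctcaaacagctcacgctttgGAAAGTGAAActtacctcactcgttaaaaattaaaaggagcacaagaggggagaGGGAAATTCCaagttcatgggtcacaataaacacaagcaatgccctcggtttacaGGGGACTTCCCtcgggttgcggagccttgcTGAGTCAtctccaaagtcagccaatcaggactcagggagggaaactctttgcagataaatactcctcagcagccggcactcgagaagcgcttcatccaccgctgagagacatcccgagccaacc
Cxcl14: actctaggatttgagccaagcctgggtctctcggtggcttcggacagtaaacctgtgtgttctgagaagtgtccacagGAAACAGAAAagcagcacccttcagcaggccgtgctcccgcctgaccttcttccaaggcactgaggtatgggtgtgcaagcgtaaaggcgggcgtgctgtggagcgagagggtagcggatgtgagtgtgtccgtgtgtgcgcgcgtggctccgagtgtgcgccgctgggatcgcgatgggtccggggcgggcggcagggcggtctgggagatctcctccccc
Ccl9: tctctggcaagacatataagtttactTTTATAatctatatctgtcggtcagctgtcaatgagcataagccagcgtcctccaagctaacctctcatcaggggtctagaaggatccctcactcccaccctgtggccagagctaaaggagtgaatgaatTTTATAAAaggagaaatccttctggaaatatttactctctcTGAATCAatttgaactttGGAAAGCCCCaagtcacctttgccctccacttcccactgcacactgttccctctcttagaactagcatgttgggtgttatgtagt
The response element was in 2 of the 7 windows, those of Cxcl10 and Cxcl14, against 3.44% of the 32851 promoters in the table. NF-kB matches were in 2 of 7 (Ccl9 and Cxcl10) against 8.46% of all promoters, AP-1 matches in the same 2 against 7.81%, and TATAAA in 3 of 7 (Ccl8, Ccl9 and Cx3cl1) against 13.6%. These are letter matches only, and nothing about binding follows from them or from their absence.

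All 10 chemokines were expressed at a mean of at least 1 CPM in every group, and the lowest count of any of them in a library was 27. Together they made up 75.4% to 80.5% of the summed CPM of 38 chemokine genes in each library. Per length of exon (FPKM, CPM per kilobase of merged exons), Ccl8 was at 120 on average over the 9 libraries, followed by Cxcl14 at 58.1, Ccl6 at 31.9, Cxcl12 at 17.3, Ccl9 at 10.98, Ccl5 at 9.64, Ccl7 at 8.92, Ccl2 at 3.58, Cxcl10 at 2.55 and Cx3cl1 at 1.69. From Ccl8 to Ccl9, each gene was above the next in all 9 libraries. Ccl9 was above Ccl5 in 6 of 9 libraries, Ccl5 above Ccl7 in 5, Ccl2 above Cxcl10 in 7 and Cxcl10 above Cx3cl1 in 6, so these neighbours were not separated beyond their spread. With the longest coding transcript as the length, Ccl5 at 17.4 stood above Ccl9 at 11.1.

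**Figure D1:**
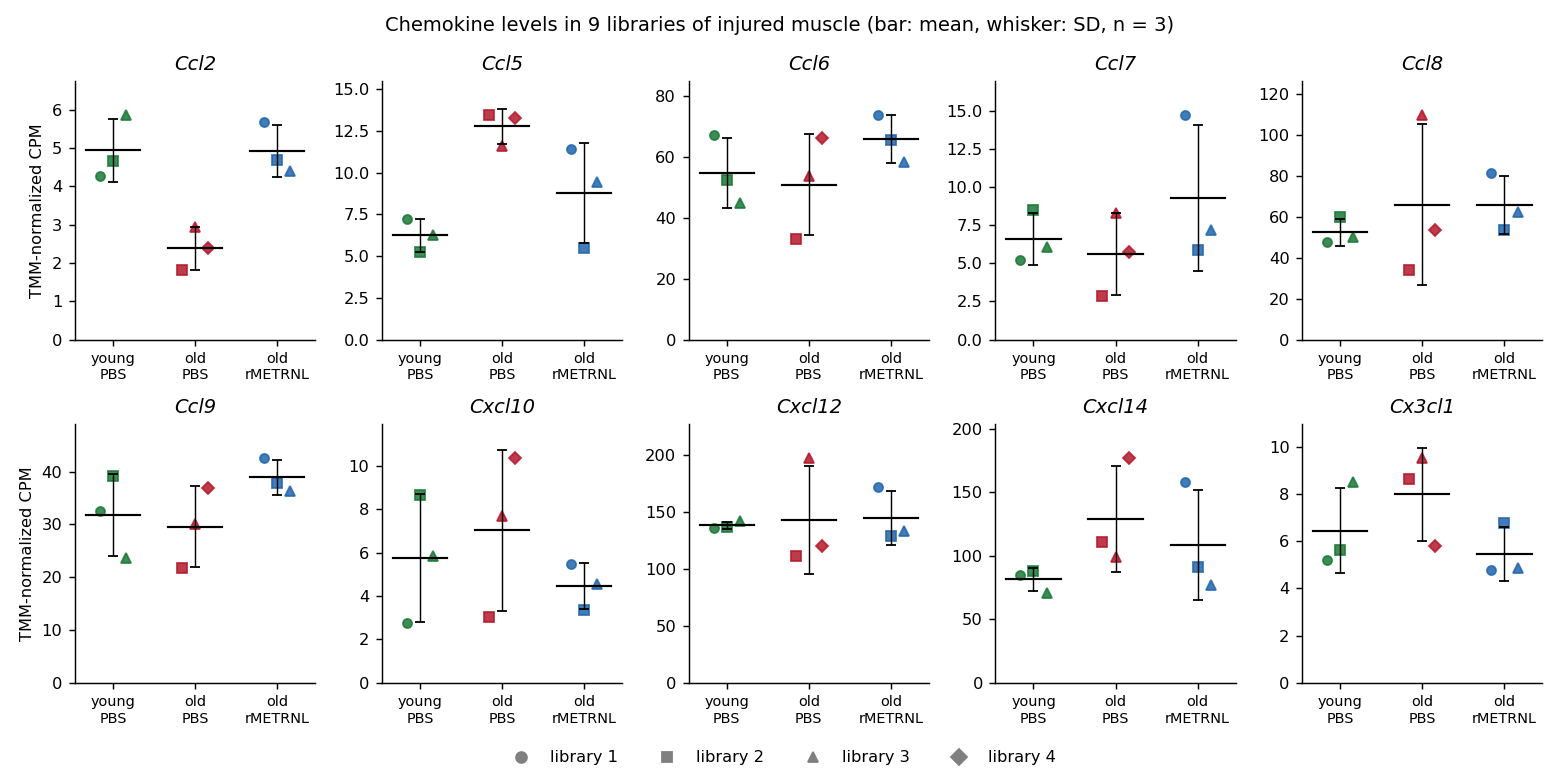
Normalized level in CPM (vertical axes from 0) of each chemokine in the 9 libraries, by group; points are libraries, horizontal bars the mean and whiskers the SD (n = 3). Ccl2 in the 3 old PBS libraries lay between 1.82 and 2.93 CPM, under every other library, and Ccl5 in old PBS lay between 11.6 and 13.5 CPM, above every other library.

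Old and young PBS muscle were compared to ask which chemokines differ with age after the same injury. Ccl2 was lower in old PBS, while Ccl5 and Cxcl14 were higher, and for these 3 genes the libraries of the groups did not overlap. None of the 10 passed an adjusted p of 0.05 under edgeR's quasi-likelihood test, adjusted by Benjamini-Hochberg, where 10 of 15560 genes tested (0.0643%) did. With DESeq2, Ccl5 alone of the 10 passed, against 265 of 18678 genes (1.42%). At an unadjusted p under 0.05 in edgeR there were 3 of the 10, Ccl2, Ccl5 and Cxcl14, against 920 genes (5.91%). In 2 of the 10 all old PBS libraries lay above all young ones, against 819 genes (5.26%), and in 1 of the 10 they all lay below, against 817 genes (5.25%). The median log2 fold change was 0.17 over the 10 chemokines and 0.01 over all genes tested.

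Ccl2 encodes the ligand of Ccr2 that recruits monocytes. Its level was 4.27, 4.66 and 5.86 CPM in young PBS 1 to 3, 1.82, 2.93 and 2.39 CPM in old PBS 2 to 4, and 5.67, 4.69 and 4.39 CPM in old rMETRNL 1 to 3. The highest old PBS library was below the lowest of either other group, and young PBS and old rMETRNL overlapped throughout. Between old and young PBS the log2 fold change was -1.04 ± 0.29 (SE), a level 0.485 times that of young PBS with a 95% interval from 0.305 to 0.771 (edgeR adjusted p = 0.420, DESeq2 adjusted p = 0.169). Leaving out each library in turn gave log2 fold changes from -1.23 to -0.89, with adjusted p from 0.0775 to 0.9999 in edgeR.

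Ccl5 encodes a ligand of Ccr1 and Ccr3 that T and NK cells make and follow. It was at 7.22, 5.21 and 6.26 CPM in the young PBS libraries, at 13.5, 11.6 and 13.3 CPM in old PBS, and at 11.4, 5.48 and 9.45 CPM in old rMETRNL. Old PBS lay above all other libraries within a narrow range, and the old rMETRNL libraries spread over a 2.08-fold range from the young level almost to the old. Against young PBS the log2 fold change in old PBS was 1.03 ± 0.20, or 2.04-fold with a 95% interval from 1.48 to 2.82 (edgeR adjusted p = 0.142, DESeq2 adjusted p = 0.0113). Without old PBS 3 the log2 fold change was 1.09 and the edgeR adjusted p was 0.0389, and with no filter on low counts the adjusted p was 0.0277, so the call of Ccl5 differed between these settings.

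Cxcl14, a CXC ligand without a settled receptor that is made by stromal and epithelial cells, was at 84.9, 88.2 and 70.6 CPM in young PBS, at 111, 99.1 and 177 CPM in old PBS and at 158, 91.2 and 76.7 CPM in old rMETRNL. Old PBS 4 and old rMETRNL 1 were the 2 highest libraries, and the other rMETRNL libraries lay at or near the young range. The log2 fold change between old and young PBS was 0.66 ± 0.24 (95% interval 0.12 to 1.21, edgeR adjusted p = 0.700). Young PBS 2, the library with keratinocyte markers, was the highest of the young PBS libraries for Cxcl14. The part of keratinocyte transcripts in that level was not tested.

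The other 7 chemokines overlapped between old and young PBS. Ccl7 and Ccl8, which encode further CC ligands from the cluster of Ccl2, had log2 fold changes of -0.23 ± 0.38 and 0.33 ± 0.37. Ccl7 was at 5.197, 8.49 and 6.09 CPM in young PBS and at 2.83, 8.25 and 5.72 CPM in old PBS. Ccl8 was at 47.5, 59.7 and 49.96 CPM in young PBS and at 33.9, 110 and 53.7 CPM in old PBS, so that the old PBS libraries lay on both sides of the young range. Without old PBS 3 the Ccl8 log2 fold change turned to -0.26.

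Ccl6 and Ccl9, rodent CC ligands of Ccr1 made by myeloid cells, differed by -0.11 ± 0.26 and -0.11 ± 0.24 on the log2 scale between old and young PBS. The level of Ccl6 was 54.9 ± 11.5 CPM in young PBS and 51.0 ± 16.7 CPM in old PBS (SD, n = 3), and that of Ccl9 was 31.8 ± 7.79 and 29.6 ± 7.67 CPM. For both genes old PBS 2 was the lowest of all 9 libraries. The 95% intervals of the differences, -0.71 to 0.49 for Ccl6 and -0.67 to 0.45 for Ccl9, leave room for moderate changes in either direction.

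Cxcl10, the interferon-induced ligand of Cxcr3, was at 2.77, 8.65 and 5.86 CPM in young PBS and at 3.03, 7.69 and 10.4 CPM in old PBS. Each group held low and high libraries, and the log2 fold change was 0.28 ± 0.50. The 12 interferon-stimulated genes, led by Iigp1, Irf7 and Ifit3, summed to 210 to 339 CPM in young PBS, 172 to 414 CPM in old PBS and 212 to 348 CPM in old rMETRNL, and 0 of 12 passed edgeR's adjusted p in old against young PBS, with 0 also at an unadjusted p under 0.05 and 0 by DESeq2. Per 1000 CPM of those genes, Cxcl10 stood at 13.2 to 25.5 CPM in young PBS, 17.6 to 36.1 in old PBS and 15.7 to 18.9 in old rMETRNL, with all groups overlapping.

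Cxcl12, the ligand of Cxcr4 that stromal cells and endothelium make, held 18.7% to 29.4% of the summed chemokine CPM. It was at 136, 137 and 142 CPM in young PBS, a range of 1.05-fold, and at 111, 197 and 120 CPM in old PBS, where 2 libraries lay under the young range and 1 above it. The log2 fold change between old and young PBS was 0.05 ± 0.24 (95% interval -0.50 to 0.59). Cx3cl1, the membrane-bound ligand of Cx3cr1 that neurons and endothelium make, was at 5.197, 5.60 and 8.51 CPM in young PBS and at 8.61, 9.52 and 5.79 CPM in old PBS, a log2 fold change of 0.31 ± 0.29. The markers of neurons and glia summed to 142, 51.8 and 154 CPM in the same 3 old PBS libraries, and their part in the Cx3cl1 level was not tested.

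**Figure D2:**
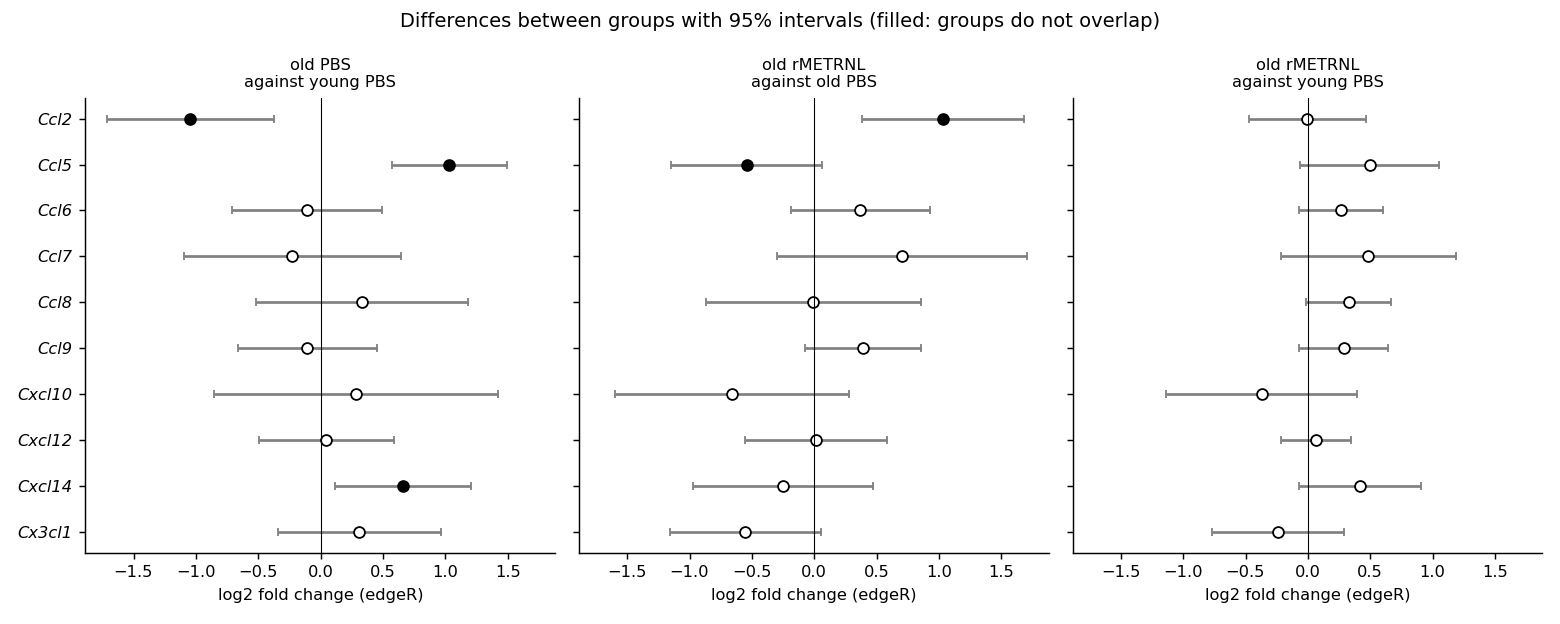
Fitted log2 fold change (horizontal axes, edgeR) of each chemokine in the 3 comparisons with 95% intervals; filled points mark genes whose libraries did not overlap between the groups. Ccl2 was at -1.04 in old against young PBS and at 1.03 in old rMETRNL against old PBS, and no gene has a filled point in old rMETRNL against young PBS.

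The rMETRNL and PBS groups of old mice were compared to ask what the protein changes in old muscle. This comparison and the previous one share the old PBS libraries, so the level of those libraries enters both with opposite sign. Of the 10 chemokines, 0 passed edgeR's adjusted p of 0.05, where 17 of 15682 genes (0.108%) did, and 0 passed in DESeq2, against 354 of 19880 genes (1.78%). At an unadjusted p under 0.05 in edgeR there was 1 of the 10, Ccl2, against 1266 genes (8.07%). Ccl2 was also the 1 chemokine higher in every rMETRNL library than in all of old PBS, against 1096 genes (6.99%), and Ccl5 the 1 chemokine lower in every one, against 892 genes (5.69%). The median log2 fold change was 0.00 over the 10 and -0.01 over all genes tested.

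Ccl2 stood at 2.38 ± 0.555 CPM in old PBS and 4.92 ± 0.673 CPM in old rMETRNL (SD, n = 3). The log2 fold change was 1.03 ± 0.29, or 2.05-fold with a 95% interval from 1.30 to 3.22 (edgeR adjusted p = 0.323, DESeq2 adjusted p = 0.134). Without old PBS 3, the library with the most new fibre and the least mature fibre transcript, it was 1.22 with an edgeR adjusted p of 0.0331, the one setting in which Ccl2 passed. In that setting 1560 of all genes passed, against 17 with the library. For Ccl5 the log2 fold change was -0.54 ± 0.27 (95% interval -1.15 to 0.07, edgeR adjusted p = 0.661). Its libraries were only just apart, with old PBS 3 at 11.6 CPM and old rMETRNL 1 at 11.4 CPM.

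Among the rest, Ccl7 was at 14.7, 5.88 and 7.15 CPM in old rMETRNL, a log2 fold change of 0.71 ± 0.44 from old PBS that was 0.20 without old rMETRNL 1 and 1.11 without old PBS 3. Ccl6 and Ccl9 were at 66.0 ± 7.82 and 38.9 ± 3.28 CPM in old rMETRNL, with log2 fold changes of 0.37 ± 0.25 and 0.39 ± 0.21 from old PBS. Cxcl10 was at 5.46, 3.34 and 4.57 CPM in old rMETRNL and differed by -0.66 ± 0.41, and Cx3cl1 was at 4.76, 6.79 and 4.84 CPM and differed by -0.55 ± 0.27 on the log2 scale. These 5 genes overlapped between the groups, and their edgeR adjusted p lay between 0.661 and 0.730.

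The other 3 chemokines had fitted differences near 0 or within a wide spread. Ccl8 was at 81.3, 53.6 and 62.3 CPM in old rMETRNL and differed by -0.01 ± 0.38 from old PBS (95% interval -0.87 to 0.85). Cxcl12 was at 171, 129 and 133 CPM and differed by 0.01 ± 0.25, and Cxcl14 differed by -0.25 ± 0.32. The intervals for Cxcl12, from -0.56 to 0.59, and for Cxcl14, from -0.97 to 0.47, do not show that the groups were alike.

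Old rMETRNL and young PBS muscle were compared to see where treated old muscle stood against young muscle, and this comparison does not use the old PBS libraries. In edgeR 0 of the 10 chemokines passed the adjusted p of 0.05, as did 0 of 15396 genes (0%), and DESeq2 called 0 of 28257 genes (0%). At an unadjusted p under 0.05 there were 0 of the 10 in edgeR, against 371 genes (2.41%). No chemokine was higher in every rMETRNL library, against 606 genes (3.94%), and none lower in every one, against 456 genes (2.96%). Ccl2 differed by -0.01 ± 0.21 on the log2 scale, with a 95% interval from -0.47 to 0.46, and Cxcl12 by 0.07 ± 0.13. Ccl5 differed by 0.50 ± 0.25 (-0.06 to 1.06), Ccl7 by 0.49 ± 0.32 and Cxcl14 by 0.42 ± 0.22. Of the 10 differences 7 were above 0 and 3 below, with a median of 0.28 against 0.00 over all genes tested.

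The genes of each chromosome 11 cluster did not share 1 direction. Ccl7 starts 10.1 kb from Ccl2, Ccl11 22.3 kb, Ccl12 66.3 kb and Ccl8 79.6 kb. Between old and young PBS, Ccl2 differed by -1.04 and Ccl11, which encodes eotaxin, an eosinophil attractant, by 0.89 ± 0.32 on the log2 scale (edgeR adjusted p = 0.695). Ccl11 was at 12.3 to 21.8 CPM in young PBS and 22.7 to 48.4 CPM in old PBS, without overlap, the reverse of Ccl2. In the other cluster Ccl9 starts 47.1 kb from Ccl5, Ccl6 62.1 kb, Ccl3 122 kb and Ccl4 137 kb. Ccl5 differed by 1.03, whereas Ccl3 and Ccl4, which encode macrophage inflammatory proteins, differed by -1.15 ± 0.38 and -0.79 ± 0.41 (edgeR adjusted p = 0.608 and 0.940). Ccl3 was at 2.31 to 3.72 CPM in young PBS, 1.01 to 1.66 CPM in old PBS and 2.04 to 3.69 CPM in old rMETRNL, so that, like Ccl2, its old PBS libraries lay under all others. The ratio of Ccl2 to Ccl7 counts ran from 0.549 to 0.963 in young PBS, 0.354 to 0.643 in old PBS and 0.385 to 0.798 in old rMETRNL, with overlap.

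**Figure D3:**
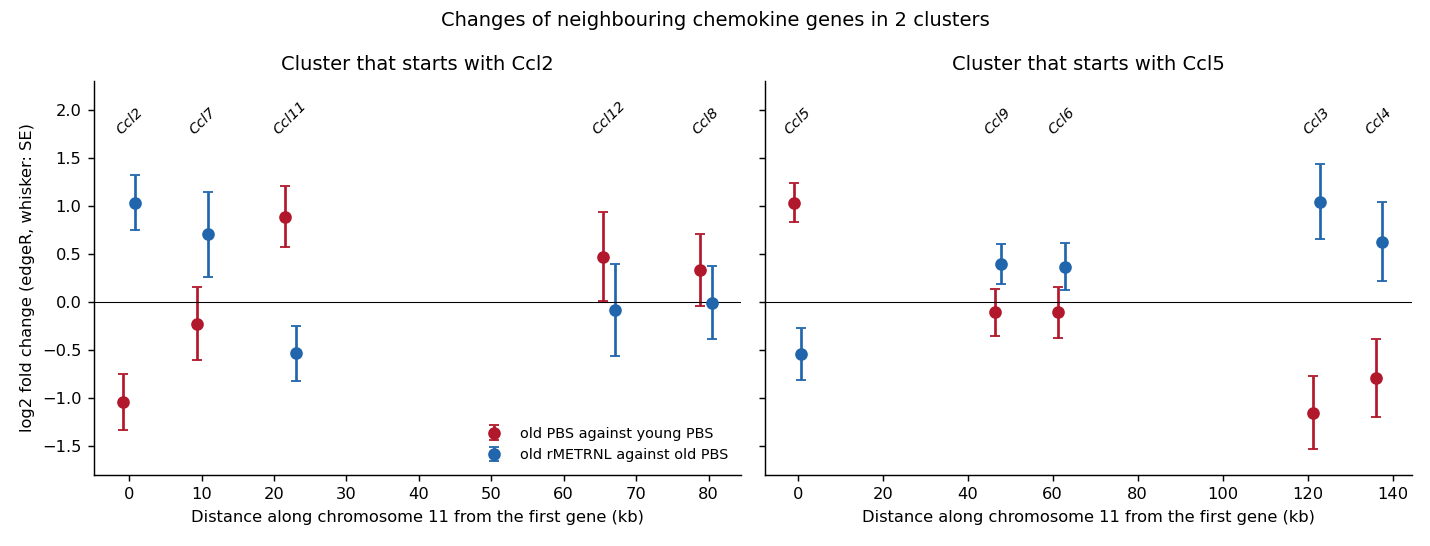
Fitted log2 fold change with its SE (vertical axis, edgeR) of chemokine genes in 2 clusters against their distance in kb along chromosome 11 from the first gene; red points compare old with young PBS and blue points old rMETRNL with old PBS. Ccl2 (-1.04) and Ccl11 (0.89) lie on opposite sides of 0 in old against young PBS, as do Ccl5 (1.03) and Ccl3 (-1.15).

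Of 28 other chemokines, 14 reached a mean of 1 CPM in a group and 4 had 0 counts in every library. In edgeR 0 of 15 tested passed the adjusted p of 0.05 in old against young PBS. In old rMETRNL 0 of 16 passed against old PBS and 0 of 15 against young PBS. At an unadjusted p under 0.05 there were 3, 2 and 2, against 5.91%, 8.07% and 2.41% of all genes tested. DESeq2 passed 0 in each. Cxcl16, Ccl11, Pf4 and Cxcl9 were the most abundant in CPM, with group means of 15.3 to 32.5 CPM. Ccl27a and Ccl25 had group means of 7.90 to 9.69 CPM, and Ccl3, Ccl4, Ccl12, Ccl22, Ccl24, Ccl28, Cxcl1 and Cxcl13 stayed under 4 CPM in each group mean. Cxcl13, which attracts B cells, had the widest fitted difference, 2.37 ± 0.78 on the log2 scale in old against young PBS, on means of 0.415 and 2.19 CPM (edgeR adjusted p = 0.619).

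**Figure D4:**
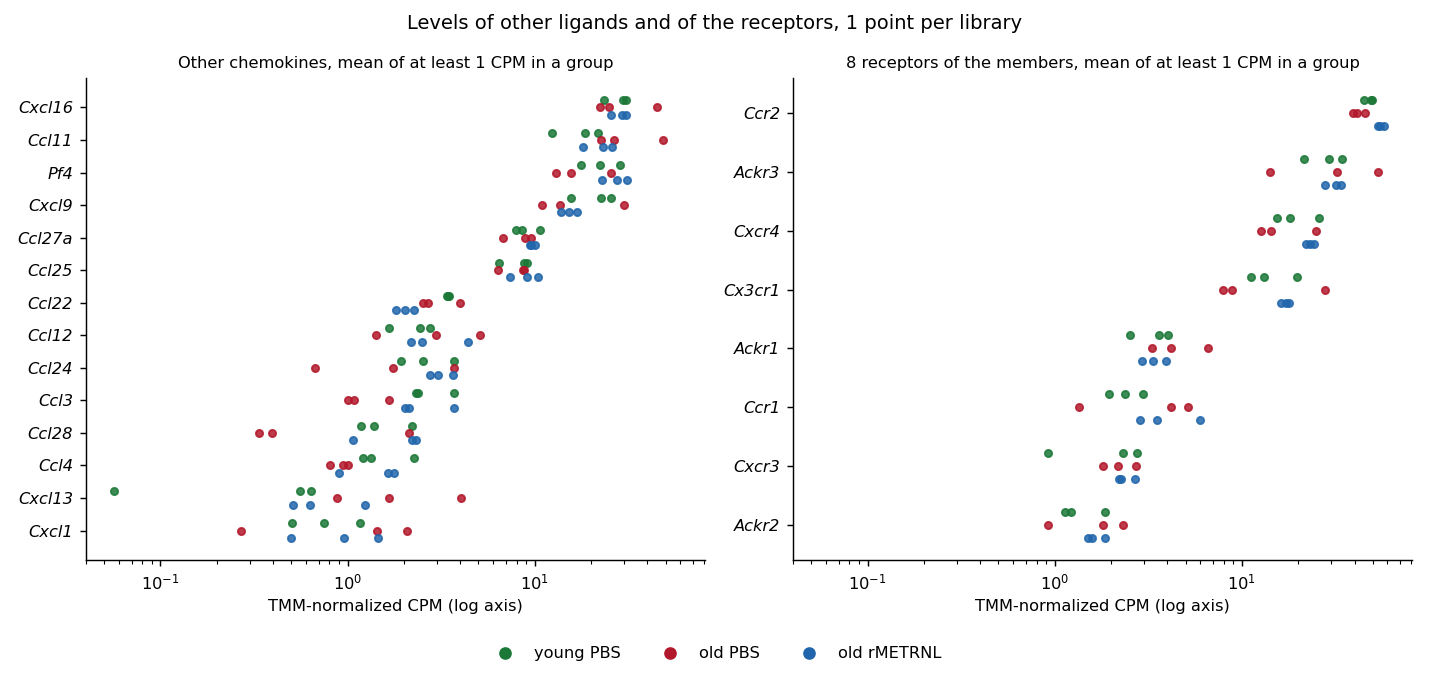
Levels in CPM (log axes) of other chemokines and of 8 receptors that bind the 10 chemokines, with 1 point per library coloured by group. Ccr2 in old rMETRNL lies between 53.2 and 57.7 CPM, above all other libraries, and Cx3cr1 in old PBS spreads from 7.92 to 27.8 CPM.

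Of 10 receptors listed for these ligands, a list that may not be complete, 9 reached a mean of 1 CPM in a group. Of 23 chemokine receptors 16 did. Ccr2, the receptor of Ccl2 and Ccl7, was at 45.04 to 49.9 CPM in young PBS, 39.4 to 45.7 CPM in old PBS and 53.2 to 57.7 CPM in old rMETRNL. It was higher in every old rMETRNL library than in the other 6, with a log2 fold change of 0.38 ± 0.14 from old PBS (edgeR adjusted p = 0.534). Over all genes 6.99% were higher in every old rMETRNL library than in all of old PBS, and 3.94% than in all of young PBS. The receptor Cxcr6 was lower in every old rMETRNL library than in all of old PBS, against 5.69% of all genes. Cxcr4, the receptor of Cxcl12, had means of 19.7, 17.3 and 23.1 CPM in young PBS, old PBS and old rMETRNL, and Ackr3, which scavenges Cxcl12, had means of 28.3, 33.2 and 31.1 CPM. Cx3cr1, the receptor of Cx3cl1, was at 11.2 to 19.7, 7.92 to 27.8 and 16.1 to 17.8 CPM. Ccr1, Cxcr3, Ackr1 and Ackr2 had group means from 1.40 to 4.70 CPM, and Ccr3 had at most 31 counts in a library.

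In edgeR 0 of the receptors passed the adjusted p of 0.05 in any comparison, of 16, 16 and 17 tested in the same order as above. At an unadjusted p under 0.05 there were 1, 2 and 1, against 5.91%, 8.07% and 2.41% of all genes tested. DESeq2 passed 0 receptors. Without old PBS 3, Cxcr4 and Cx3cr1 passed in old rMETRNL against old PBS, where 1560 of 15981 genes (9.76%) did. With no filter on low counts Ccr3 passed there, where 740 of 28995 genes (2.55%) did. Its counts were 0, 2 and 4 in old PBS and 9, 31 and 12 in old rMETRNL. Unfiltered, Cxcr5 passed in old rMETRNL against young PBS, where 132 of 28282 genes (0.467%) did. It had 0 counts in each young PBS library and 9, 13 and 6 in old rMETRNL. Cxcr6, the receptor of Cxcl16 on T cells, was the receptor with an unadjusted p under 0.05 in old against young PBS, at 0.693 to 1.497 CPM in young PBS, 2.69 to 3.84 CPM in old PBS and 1.53 to 1.82 CPM in old rMETRNL (edgeR adjusted p = 0.404).

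No inducer of chemokine genes and no protease that cleaves chemokines passed the adjusted p of 0.05 in edgeR. Of 15 inducers, 11 were tested in each comparison and 0 passed, and 0 passed by DESeq2. At an unadjusted p under 0.05 in edgeR there were 0, 1 and 0, against 5.91%, 8.07% and 2.41% of all genes tested. Hif1a, Nfkb1, Nfkb2 and Rela were the most abundant of them, with group means from 29.3 to 60.3 CPM. The 1 inducer with an unadjusted p under 0.05 was Tnfaip3, an NF-kB target and inhibitor, at 13.1 CPM in old PBS and 24.4 CPM in old rMETRNL (edgeR adjusted p = 0.451), named after its values were seen. Of 7 proteases all 7 were lower on average in old PBS than in young PBS and all 7 higher with rMETRNL than with PBS in old mice. The same old PBS libraries enter both counts, so the second does not stand apart from the first. In old against young PBS only Mmp2 had libraries that did not overlap. Of the proteases 0 passed in edgeR in either comparison, and 0 passed by DESeq2. At an unadjusted p under 0.05 in edgeR there was 1 in each, against 5.91% and 8.07% of all genes tested. Mmp2, a gelatinase of stromal cells, was the most abundant at 398, 279 and 385 CPM in young PBS, old PBS and old rMETRNL, followed by Mmp14 at 271, 194 and 269 CPM.

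Summed cell type markers are given here beside the 3 chemokines whose libraries separated the groups, and in bulk RNA fewer cells of a type and less RNA per cell cannot be told apart. Macrophage and monocyte markers, led by Lyz2, summed to 1562 to 1845 CPM in young PBS, 1158 to 1623 CPM in old PBS and 1711 to 1999 CPM in old rMETRNL. The summed markers of fibro-adipogenic progenitors ran from 4010 to 5603 CPM in young PBS, 2477 to 3432 CPM in old PBS and 3763 to 5720 CPM in old rMETRNL, and those of endothelium from 384 to 448, 260 to 387 and 372 to 485 CPM. The macrophage and the endothelial sums overlapped between old and young PBS, while the progenitor sums did not. Between old rMETRNL and old PBS the macrophage and the progenitor sums did not overlap, while the endothelial sums did. Of the 10 macrophage markers 3 were higher in every old rMETRNL library than in all of old PBS, namely Lyz2, Cd68 and Itgam. The abundant markers C1qa, Csf1r and Mrc1 overlapped. The macrophage sum was not taken without Lyz2, its most abundant marker, so its separation cannot be told apart from that of Lyz2. Col1a1, a fibrillar collagen gene, was on average the most abundant of the progenitor markers in each group, with means of 3012, 1323 and 2638 CPM in young PBS, old PBS and old rMETRNL. Without Col1a1 the other 7 progenitor markers summed to 1471 to 1829, 1322 to 1813 and 1681 to 2359 CPM, and the groups overlapped. T and NK cell markers, led by Cd4, ran from 22.1 to 24.3, 27.3 to 32.6 and 21.8 to 33.6 CPM, without overlap between young and old PBS. In old against young PBS 0 of 10 macrophage and 0 of 8 progenitor markers passed in edgeR. Of the 7 endothelial and the 9 T and NK cell markers 0 passed as well. At an unadjusted p under 0.05 in edgeR there were 2, 2, 1 and 5 in the same order, against 5.91% of all genes tested. DESeq2 passed 0 of these markers. In old rMETRNL against old PBS the counts in edgeR were again 0 for the 4 lists. At an unadjusted p under 0.05 there were 3, 6, 2 and 2 markers, against 8.07% of all genes tested. DESeq2 passed 0, 1, 0 and 0 there, the 1 being the progenitor marker Dpt, at 154 CPM with PBS and 270 CPM with rMETRNL (adjusted p = 0.0248). The part of these markers in the chemokine differences was not tested. An exact permutation test of 3 against 3 libraries cannot give a p below 0.1, so levels per marker are given as values alone, a scaling added after the data were seen.

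Per 1000 CPM of macrophage markers, Ccl2 stood at 2.74, 2.82 and 3.18 CPM in young PBS, 1.57, 1.80 and 1.96 CPM in old PBS and 3.20, 2.35 and 2.56 CPM in old rMETRNL. The old PBS libraries still lay under both other groups, and the same was so per 1000 CPM of progenitor markers, at 1.05 to 1.09, 0.704 to 0.965 and 0.992 to 1.17 CPM. Per 1000 CPM of the progenitor markers without Col1a1, Ccl2 was at 2.34 to 3.98, 1.31 to 2.21 and 2.41 to 2.79 CPM, and old PBS again lay under both other groups. Per 1000 CPM of mature fibre genes, Ccl2 overlapped between old and young PBS, at 0.0202 to 0.0526 and 0.0511 to 0.0781 CPM, and lay apart from old rMETRNL at 0.0580 to 0.0784 CPM. Ccl5 per 1000 CPM of T and NK cell markers was at 236 to 326 CPM in young PBS and 355 to 486 CPM in old PBS, without overlap. In old rMETRNL it was at 252 to 383 CPM, which overlapped old PBS. These markers did not move together in old against young PBS, from -0.41 for Gzma to 1.77 for Cd8a on the log2 scale. Cd8a and Cd3d (1.39) lay above the 1.03 of Ccl5 and the other markers below it, so this scaling depends on the markers chosen. Cxcl14 per 1000 CPM of progenitor markers was at 12.6 to 21.2 CPM in young PBS, 28.9 to 71.4 CPM in old PBS and 20.4 to 27.6 CPM in old rMETRNL, so that old PBS lay above both other groups. On that scale the Cxcl14 difference between old rMETRNL and old PBS was -1.04 on the log2 scale of group means, against -0.25 without it. With Col1a1 left out of the progenitor markers, Cxcl14 was at 46.4 to 56.8, 74.9 to 97.5 and 43.2 to 66.9 CPM per 1000 CPM in young PBS, old PBS and old rMETRNL, and the difference between old rMETRNL and old PBS was -0.62. Old PBS lay above both other groups with and without Col1a1 in the list. Per 1000 CPM of mature fibre genes, Cxcl14 in old rMETRNL overlapped old PBS, at 1.01 to 2.18 and 1.23 to 2.02 CPM. Young PBS lay under old PBS on that scale, at 0.941 to 1.10 CPM. Unscaled Cxcl14 also overlapped between old rMETRNL and old PBS.

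**Figure D5:**
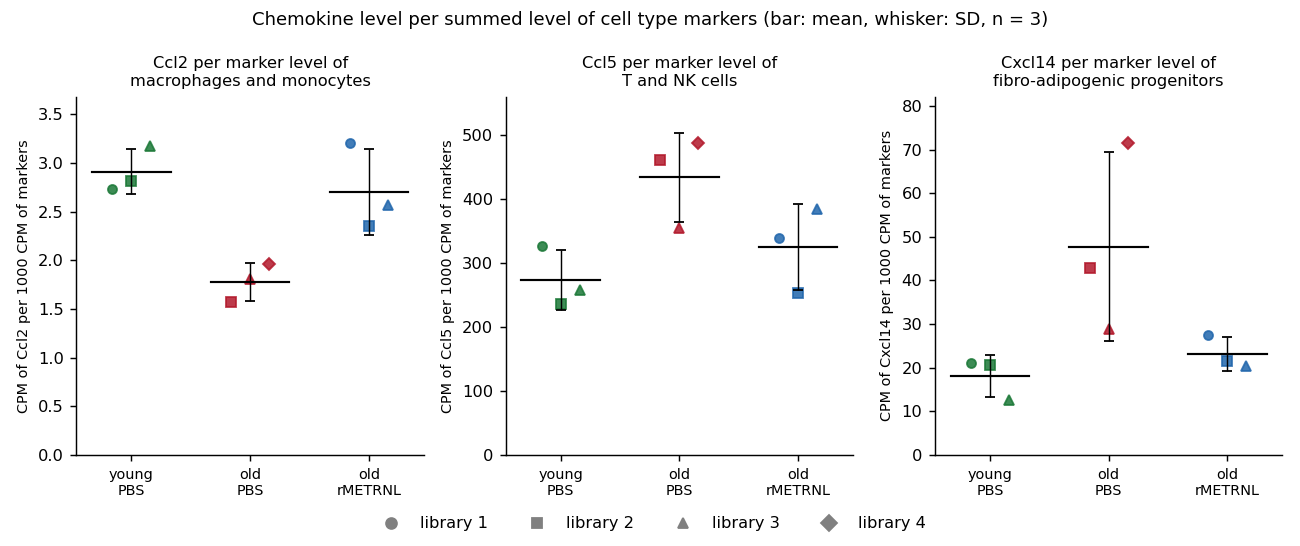
Level of Ccl2, Ccl5 and Cxcl14 per 1000 CPM of summed markers of macrophages and monocytes, T and NK cells and fibro-adipogenic progenitors (vertical axes from 0); points are libraries, bars the mean and whiskers the SD (n = 3). For Ccl2 the old PBS libraries lie at 1.57 to 1.96, under all others, and for Cxcl14 at 28.9 to 71.4, above all others.

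Old PBS libraries differed among themselves more than those of the other groups did across genes in general. Of 14131 genes with a mean of at least 1 CPM and a count in every library, 71.4% had their widest ratio of highest to lowest library in old PBS, 15.0% in young PBS and 13.6% in old rMETRNL. Among the chemokines this ratio was widest in old PBS for 8 of the 10 genes, in old rMETRNL for 2 (Ccl5 and Cxcl14) and in young PBS for 0, with medians of 1.78, 1.47 and 1.44. The widest was 3.43 for Cxcl10 in old PBS, followed by 3.24 for Ccl8 in old PBS. Old PBS 2 was the lowest of all libraries for 6 of the 10, namely Ccl2, Ccl6, Ccl7, Ccl8, Ccl9 and Cxcl12, while it was the highest for Ccl5. Old PBS 3 was the highest for Ccl8, Cxcl12 and Cx3cl1, and old rMETRNL 1 for Ccl6, Ccl7 and Ccl9.

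Over the 9 libraries, the genes whose log2 CPM followed each chemokine most closely were found among 14166 other genes with a mean of at least 1 CPM, as a description in libraries that share groups and depth. Among those of Ccl2 were Tspan5 (Pearson r = 0.974) and Abcg3 (0.972), and Ccl5 was followed by Cfap36 (0.929), Cd2 (0.906) and Nr2f2 (0.898). Ccl7 was followed by Irf1 (0.949), Spidr (0.943) and Dram1 (0.940), and Ccl8 by Otulin (0.962), Cd52 (0.949) and Ms4a6b (0.947). For Ccl6 they were Atp6v0d1 (0.970), Brk1 (0.969) and Zfp384 (0.966), and for Ccl9 Gosr1 (0.920), Skiv2l (0.917) and Siglecg (0.912). Cxcl10 was followed by Tgtp2 (0.930), Pim2 (0.921) and Sh3yl1 (0.909), Cxcl12 by Crlf2 (0.954), Gm12258 (0.953) and Sp100 (0.946), Cxcl14 by Crk (0.915), Lipe (0.914) and Gm7536 (0.909), and Cx3cl1 by Whrn (0.9746), Sept11 (0.945) and Diexf (0.933). Among these, Cd2 is a T and NK cell surface protein, Irf1 an interferon regulator and Tgtp2 an interferon-induced GTPase. They were picked from the list for their known roles, and Cfap36 ranked above Cd2 for Ccl5. A shared cell type or regulator was not tested.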

How the data were processed

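Gene expression in injured mouse muscle was measured by RNA-seq in 9 libraries. The authors deposited raw counts per Ensembl gene, 1 column per library, without normalization, and every column was used. The submitters' processing notes name STAR, featureCounts and the build mm9, with no versions. The strand setting and annotation release are not given in the sources used here, and the paper names DESeq2 for its own tests. Gene positions and symbols came from GENCODE M21 on GRCm38, matched by identifier, and promoters from RefSeq on GRCm38.p6.

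Pairs of groups were compared on their 6 libraries with edgeR 4.0.16 (R 4.3.3) on all genes kept by filterByExpr, with TMM factors, glmQLFit, glmQLFTest and Benjamini-Hochberg adjustment over all genes tested at 0.05. SE and 95% intervals were derived from the fold change and the F statistic, and the procedure was tested on simulated data. Levels are CPM with TMM factors over the 9 libraries. Between libraries of 1 group the chi-square of counts was 11.9 to 188 per degree of freedom, above counting error, so each library was kept as its own replicate.

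The members, gene lists and tests were chosen with earlier results of these data known. Named were all 10 members, the receptors that bind them, other chemokines of at least 1 CPM in a group, genes of those lists that passed, up to 4 genes of highest CPM from other lists, and 3 genes per member by Pearson r of log2 CPM (prior count 2). Some genes that this rule would name are not reported here. The alternatives were DESeq2 1.42.0 (its size factors and its Wald test), other filters on low counts, all 9 libraries in 1 fit, a replicate block, a threshold of 0.1 and each library left out in turn.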

Additional observations from a re-analysis of the deposited data

How the results depend on the processing

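Ccl5 passed in old against young PBS, which made 1 of the 10 chemokines, with DESeq2's Wald test, with no filter on low counts and without old PBS 3. Ccl2 passed in old rMETRNL against old PBS, again 1 of the 10, without old PBS 3. Over the libraries left out in turn the count therefore ran from 0 to 1 in both comparisons, and it was 0 in every setting of old rMETRNL against young PBS. The other chemokines had 0 calls in every setting. Of the receptors, 1 passed with no filter in old rMETRNL against old PBS (Ccr3) and 1 in old rMETRNL against young PBS (Cxcr5), and with libraries left out the first count ran from 0 to 2. Among all genes the calls in old against young PBS went from 10 to 354 with no filter, 3 with at least 10 counts in every library, 265 with DESeq2, 63 with all 9 libraries in 1 fit and 401 without old PBS 3. In old rMETRNL against old PBS they went from 17 to 740, 1, 354, 71 and 1560 under the same changes, and in old rMETRNL against young PBS from 0 to 132 with no filter. The cause of these shifts was not tested.

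With 1 library left out, log2 fold changes that changed sign in old against young PBS were those of Ccl6 from -0.33 to 0.13, Ccl7 from -0.63 to 0.089, Ccl8 from -0.26 to 0.64, Ccl9 from -0.30 to 0.074, Cxcl10 from -0.089 to 0.69 and Cxcl12 from -0.26 to 0.20. In old rMETRNL against old PBS they were Ccl8 from -0.32 to 0.59, Cxcl12 from -0.13 to 0.32 and Cxcl14 from -0.62 to 0.035. In old rMETRNL against young PBS they were Ccl2 from -0.12 to 0.14, Ccl7 from -0.015 to 0.72, Cxcl10 from -0.71 to 0.045, Cxcl12 from -0.074 to 0.14 and Cx3cl1 from -0.42 to 0.013. With no filter Ccl8 in old rMETRNL against old PBS was 0.0070. The signs of Ccl2, Ccl5, Cxcl14 and Cx3cl1 in old against young PBS, and of Ccl2, Ccl5, Ccl6, Ccl7, Ccl9, Cxcl10 and Cx3cl1 in old rMETRNL against old PBS, held in all settings run.

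Whether the replicate numbers pair the libraries is not known, and correlations over so few pairs cannot decide it. The deviations of same-numbered libraries from their group means correlated at 0.11 and 0.41 in old against young PBS, at -0.05 and -0.32 in old rMETRNL against old PBS, and at 0.02, -0.05 and -0.18 in old rMETRNL against young PBS. With the number as a block, 0 of the 10 chemokines passed in each comparison, the log2 fold change of Cxcl10 in old against young PBS became -0.51 and that of Cxcl12 in old rMETRNL against old PBS became -0.18, and calls among all genes were 11, 65 and 0.

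With 3 libraries in a group and 27 counts for the least covered chemokine, differences inside the printed 95% intervals could not be resolved. In the edgeR fit on all 6 libraries of a comparison with the filter on low counts, 0 of the 10 chemokines passed at a threshold of 0.1 in each comparison.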
